A study of Mus musculus with 8 samples.

Results

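Muscle fibres hold a small stock of ATP, and the genes described here keep it filled. Creatine kinases move phosphate between ATP and creatine, adenylate kinases make ATP and AMP out of ADP, and the purine nucleotide cycle removes AMP as IMP and rebuilds it. The group held 10 genes chosen by symbol for these roles (Ckm, Ckmt2, Ckb, Slc6a8, Gatm, Gamt, Ak1, Ampd1, Adssl1 and Adsl) out of 22880 genes counted, and all 10 passed the filter on low counts that left 14001 tested genes. The 8 libraries came from soleus, a calf muscle rich in slow fibres, with 4 control mice (Dnm2 +/+) and 4 Dnm2 +/K562E mice. All 8 were male, 2 months old and on the C57BL/6 background, which the methods give as the J substrain. The mutant mice carry 1 copy of the endogenous dynamin 2 gene with the K562E change in all tissues, together with a remaining LoxP site in the following intron, so that any effect of muscle cannot be told apart from one of nerve or other tissues. Levels are given as normalized CPM (counts relative to the library size after TMM scaling), per mouse or as mean ± SD. A gene was called higher or lower in Dnm2 +/K562E soleus where the adjusted p was under 0.05 and the log2 fold change reached 0.58 in size.

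In Dnm2 +/K562E soleus, 6 of the 10 genes were called lower and 1 was called higher. Of all tested genes, 7.85% were called lower and 12.9% higher. The lower genes were both abundant creatine kinases (Ckm and Ckmt2), the creatine transporter Slc6a8, the adenylate kinase Ak1, and Adssl1 and Adsl of the purine nucleotide cycle. The higher gene was Gamt, which encodes the second enzyme of creatine synthesis. Ampd1, the muscle AMP deaminase, passed the threshold on p but not that on the fold change. Adding it, 8 of the 10 passed the threshold on p, against 43.8% of all tested genes. Ckb and Gatm did not pass. The median log2 fold change was -0.70 over the 10 genes and 0.01 over all tested genes. The genotypes did not overlap in 9 of the 10 genes, Ckb being the exception, whereas 41.2% of all tested genes had no overlap. Added up, the 10 genes took 12913 to 15302 normalized CPM in controls and 6924 to 7842 in Dnm2 +/K562E mice.

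**Figure D1:**
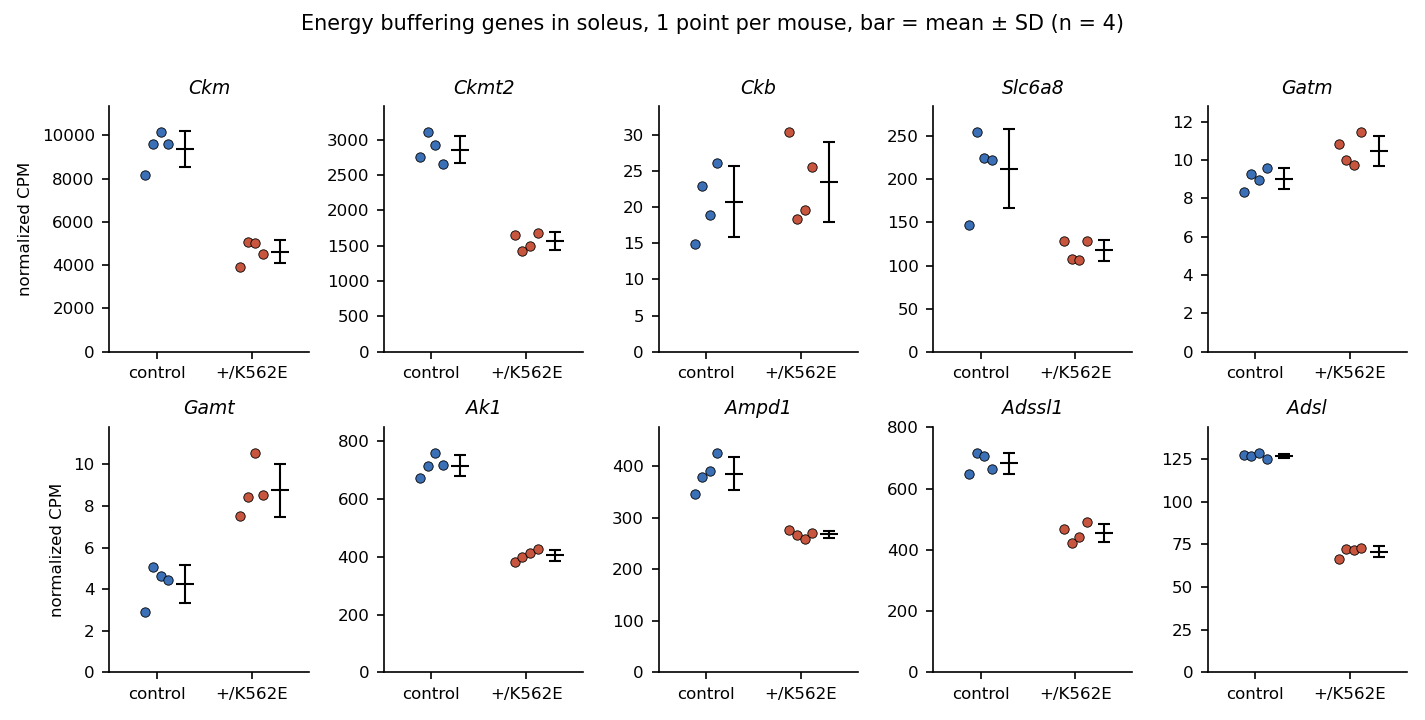
Normalized CPM of the 10 genes in each mouse (linear axes from 0, 1 point per mouse, bars give mean ± SD over 4 mice). Control and Dnm2 +/K562E points are separate in every panel except that of Ckb, and Gamt and Gatm are the panels in which the Dnm2 +/K562E points lie above all controls.

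Total counts ran from 33407430 to 48832814 per mouse, and any pair of mice of one genotype differed by more than sampling noise (chi-square per degree of freedom of at least 12.6). Total Dnm2, whose count adds both alleles, stood at 66.3 ± 4.74 normalized CPM in controls and 73.4 ± 2.43 in Dnm2 +/K562E mice (SD, n = 4 each; adjusted p = 0.0909, edgeR). All 6 markers of slow and all 9 of fast fibres passed the filter on low counts. TMM factors were 0.915 to 0.959 in controls and 1.04 to 1.10 in Dnm2 +/K562E mice. Without these factors (library size alone) the median of all genes moved to 0.22 on the log2 scale. The log2 fold changes of the 7 genes that were lower in mean then ran from -0.81 for Ckm to -0.31 for Ampd1, all with an adjusted p under 0.05. In bulk muscle, fewer cells of a type and less RNA per cell cannot be told apart.

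For the creatine kinases and for Gamt, the 250 bases before the RefSeq start site (GRCm38.p6) are shown, because they set genes that fell by a like amount (Ckm and Ckmt2) beside one that did not differ detectably (Ckb) and one that rose (Gamt). Capitals mark CANNTG, the letters of an E-box bound by many helix-loop-helix factors, and TATAAA, the letters of a TATA box, each searched on both strands. The window of Ckm is chr7:19410844-19411093 (plus strand), that of Ckmt2 chr13:91876886-91877135 (minus strand), that of Ckb chr12:111672339-111672588 (minus strand) and that of Gamt chr10:80261013-80261262 (minus strand). The RefSeq start of Ckm lies within the span that GENCODE gives the gene.
Ckm: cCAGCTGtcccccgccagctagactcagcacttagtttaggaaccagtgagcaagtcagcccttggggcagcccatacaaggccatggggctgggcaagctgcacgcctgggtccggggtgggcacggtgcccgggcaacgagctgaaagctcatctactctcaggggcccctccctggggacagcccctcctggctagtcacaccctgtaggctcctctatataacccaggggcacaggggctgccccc
Ckmt2: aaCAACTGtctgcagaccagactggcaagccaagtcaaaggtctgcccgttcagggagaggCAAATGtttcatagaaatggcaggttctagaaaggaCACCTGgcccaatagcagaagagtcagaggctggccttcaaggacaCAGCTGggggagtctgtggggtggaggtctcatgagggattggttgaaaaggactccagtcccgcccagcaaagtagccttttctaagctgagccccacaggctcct
Ckb: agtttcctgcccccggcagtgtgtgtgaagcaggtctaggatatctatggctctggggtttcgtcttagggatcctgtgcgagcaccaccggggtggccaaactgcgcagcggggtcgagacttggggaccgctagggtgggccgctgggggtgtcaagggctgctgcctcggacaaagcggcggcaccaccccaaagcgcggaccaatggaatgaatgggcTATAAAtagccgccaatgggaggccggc
Gamt: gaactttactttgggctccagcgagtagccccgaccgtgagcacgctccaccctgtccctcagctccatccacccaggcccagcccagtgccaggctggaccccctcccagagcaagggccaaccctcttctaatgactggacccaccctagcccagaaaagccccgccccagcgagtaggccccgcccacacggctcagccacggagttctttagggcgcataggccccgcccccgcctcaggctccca

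CANNTG stood at 4 places in the Ckmt2 window and at 1 in that of Ckm. The form CAGCTG was among them in both windows. Neither form was in the windows of Ckb and Gamt. The Ckb window alone held the exact letters TATAAA, 28 bases before the start. Near forms were not searched, and the Ckm window holds the letters tatataa, unmarked, close to its end. Over all 32851 promoters of the table and this length, 66.2% held CANNTG and 12.4% TATAAA, and 4271 (13%) held CAGCTG. Of the 10 genes, 8 had at least 1 promoter in the table, with 11 promoters in all. CANNTG was in 9 of these 11 promoters (6 genes) and CAGCTG in 4 (3 genes). The Gatm window, not shown, also held CANNTG, although Gatm was not called and was higher in mean in Dnm2 +/K562E mice. A relation between these letters and the direction of change was not tested. Slc6a8 and Ampd1 were the genes without an entry.

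Ckm encodes the cytosolic muscle creatine kinase, which sits in part at the M-band of the sarcomere. It lies on chromosome 7 (19404776 to 19422841, plus strand). In controls 1 to 4 its level was 8189, 9586, 10138 and 9586 normalized CPM, and in Dnm2 +/K562E mice 1 to 4 it was 3907, 5072, 5017 and 4522. The highest Dnm2 +/K562E mouse was thus well below the lowest control, mouse 1. Ckm fell to 49.4% of the control level, with a log2 fold change at -1.02 (standard error 0.10, 95% interval -1.24 to -0.79, adjusted p = 2.20e-05). As a share of all counts of a library, it took 0.871% on average in controls and 0.498% in Dnm2 +/K562E mice. An antisense gene, A930016O22Rik, overlaps 15.5% of its exon length and held 51 counts in all 8 mice together.

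Ckmt2 encodes the creatine kinase of sarcomeric mitochondria, which charges creatine with phosphate at the site of ATP synthesis. It lies on chromosome 13 (91853387 to 91876885, minus strand). Its levels were 2758, 3104, 2922 and 2661 normalized CPM in controls and 1649, 1420, 1493 and 1685 in Dnm2 +/K562E mice. The ranges lay far apart, and Ckmt2 fell to 54.6% of control (log2 fold change -0.87, standard error 0.08, adjusted p = 1.14e-05). Set against the respiratory chain of the same mouse (the geometric mean of the counts of Ndufs1, Sdhb, Uqcrc2, Cox4i1 and Atp5a1), Ckmt2 did not differ detectably, with a log2 ratio of 1.81 ± 0.0462 in controls and 1.75 ± 0.110 in Dnm2 +/K562E mice (SD, n = 4 each, exact two-sided permutation test, p = 0.371). All 5 of these respiratory genes were called lower, with log2 fold changes from -0.92 to -0.66.

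Ckb encodes the cytosolic brain-type creatine kinase, which many non-muscle cells use. Its levels were 14.9, 23.0, 18.8 and 26.1 normalized CPM in controls and 30.3, 18.3, 19.6 and 25.5 in Dnm2 +/K562E mice, so the genotypes overlapped widely. The log2 fold change was 0.18 with a 95% interval from -0.24 to 0.60 (adjusted p = 0.480), which a change of the size seen in Ckm lies outside of. Of the 31-base stretches in Ckb transcripts, 17.5% also occur in other genes, led by Gm12892 and the pseudogenes Ckb-ps1 and Ckb-ps2, so that its count is less certain.

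Ckmt1, the creatine kinase of mitochondria outside muscle and the only isozyme of this family not among the 10 genes, was close to the limit of detection in controls. It had 2, 0, 4 and 1 counts in controls and 60, 41, 67 and 86 counts in Dnm2 +/K562E mice, with no overlap (adjusted p = 3.50e-05). Relative to the scaled library sizes, the 254 counts in Dnm2 +/K562E mice and the 7 in controls gave a ratio of 33.3, with a 95% interval of 15.9 to 83.8 that covers counting error only. At 1.63 ± 0.560 normalized CPM (SD, n = 4) it was a minor transcript in Dnm2 +/K562E soleus too.

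Divided by exon length, the creatine kinase transcripts were made up in controls of 62.4% ± 2.14 Ckm, 37.4% ± 2.16 Ckmt2 and 0.139% ± 0.0303 Ckb. In Dnm2 +/K562E mice the shares were 59.9% ± 4.64, 39.8% ± 4.55 and 0.308% ± 0.0880 (SD, n = 4 each). The shares of Ckm and Ckmt2 overlapped between genotypes, whereas that of Ckb did not, its highest control being 0.177% and its lowest Dnm2 +/K562E mouse 0.234%. The level of Ckb itself overlapped between genotypes, while Ckm and Ckmt2, which make up nearly all of the total, were lower. Ckmt1 reached 0.0247% ± 0.00844 in Dnm2 +/K562E mice. The exon length adds all annotated exons of a gene, 2913 bases for Ckm, 1486 for Ckmt2 and 2895 for Ckb. The size of each share depends on these lengths, which can exceed that of the transcript in muscle.

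**Figure D2:**
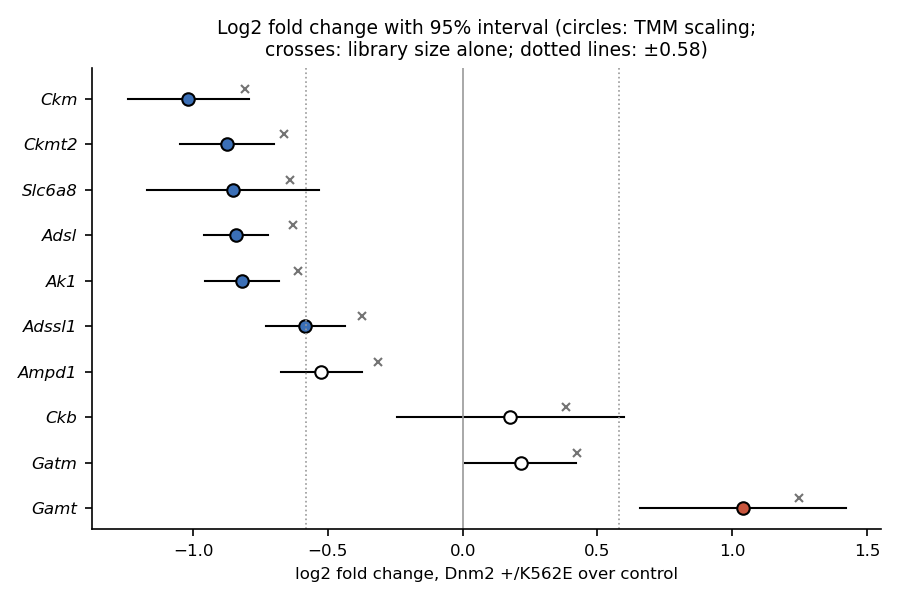
Log2 fold change of the 10 genes between genotypes (horizontal axis) with 95% intervals, filled where called lower (blue) or higher (red), and the value with library size alone as a cross. With library size alone the crosses lie to the right of the circles in all 10 genes, from -0.81 (Ckm) to 1.25 (Gamt), and no gene changes sign.

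Muscle takes up most of its creatine from blood, where creatine made in kidney and liver arrives. Slc6a8 encodes the sodium-dependent transporter for this uptake and lies on chromosome X (73673150 to 73682502, plus strand). Its levels were 148, 255, 225 and 222 normalized CPM in controls and 128, 108, 106 and 129 in Dnm2 +/K562E mice. Control 1 was the lowest control and the only one near the Dnm2 +/K562E range, without reaching it. Slc6a8 fell to 55.4% of control (log2 fold change -0.85, standard error 0.14, adjusted p = 7.74e-04), and without control 1 the log2 fold change was -1.0.

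Gatm and Gamt encode the 2 enzymes of creatine synthesis, which make guanidinoacetate and methylate it to creatine. Both were low in soleus. Gamt, on chromosome 10 (80258151 to 80261012, minus strand), had 2.92, 5.05, 4.61 and 4.45 normalized CPM in controls and 7.52, 8.41, 10.5 and 8.54 in Dnm2 +/K562E mice. Every Dnm2 +/K562E mouse was above every control, and Gamt rose 2.05-fold (log2 fold change 1.04, standard error 0.17, adjusted p = 6.85e-04). The value without control 1, the lowest, was 0.89. Gatm, on chromosome 2 (122594467 to 122611303, minus strand), had 8.31, 9.27, 8.94 and 9.60 normalized CPM in controls and 10.8, 9.97, 9.71 and 11.4 in Dnm2 +/K562E mice. Although these ranges did not overlap, the log2 fold change of 0.21 (95% interval 0.01 to 0.42) did not pass the adjustment (adjusted p = 0.0844). It passed on p with library size alone, at 0.42 (adjusted p = 0.00410), where the median of all genes was 0.22.

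Ak1 encodes the cytosolic adenylate kinase that is the main one of skeletal muscle, and it lies on chromosome 2 (32621758 to 32635058, plus strand). Its levels were 673, 713, 759 and 718 normalized CPM in controls and 383, 399, 412 and 428 in Dnm2 +/K562E mice. The spread was narrow in both genotypes (coefficient of variation 4.89% and 4.70%), and Ak1 fell to 56.7% of control (log2 fold change -0.82, standard error 0.06, adjusted p = 3.36e-06). Of the other 8 adenylate kinase genes, Ak7 and Ak9 did not pass the filter on low counts. Ak4, a mitochondrial matrix isozyme, was the 1 called higher. It had 4.08, 3.03, 3.25 and 2.97 normalized CPM in controls and 19.6, 13.04, 13.9 and 15.6 in Dnm2 +/K562E mice, a rise of 4.66-fold (log2 fold change 2.22, standard error 0.16, adjusted p = 2.37e-06). Of its 31-base stretches, 11.6% occur in the pseudogene Ak3l2-ps. Ak3, a matrix isozyme that uses GTP, passed on p only (log2 fold change -0.26, adjusted p = 0.00901), and 21.2% of its stretches occur in other genes. Ak5 (0.47), Ak6 (-0.09) and Ak8 (0.60) did not pass on p. Most exon bases of Ak6 overlap Taf9, so that the count of Ak6 is uncertain.

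The purine nucleotide cycle runs from AMP to IMP by AMP deaminase, on to adenylosuccinate by adenylosuccinate synthetase, and back to AMP by adenylosuccinate lyase. The genes of all 3 steps that are among the 10 were lower in mean. Adsl, the lyase (chromosome 15, 80948490 to 80970946, plus strand), had 127, 127, 128 and 125 normalized CPM in controls and 66.3, 72.2, 71.6 and 73.0 in Dnm2 +/K562E mice. The controls hardly differed from each other (coefficient of variation 1.05%), and Adsl fell to 55.8% of control (log2 fold change -0.84, standard error 0.05, adjusted p = 1.39e-06). By p-value it ranked 90 of the 14001 tested genes and first of the 10 genes.

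Adssl1, the muscle adenylosuccinate synthetase (chromosome 12, 112620045 to 112641360, plus strand), had 646, 716, 706 and 663 normalized CPM in controls and 467, 422, 443 and 490.5 in Dnm2 +/K562E mice. It fell to 66.7% of control (log2 fold change -0.58, standard error 0.07, adjusted p = 5.18e-05), just inside the threshold on the fold change. Ampd1 (chromosome 3, 103074014 to 103099720, plus strand) had 346, 380, 391 and 425 normalized CPM in controls and 275, 267, 260 and 270 in Dnm2 +/K562E mice. These ranges did not overlap, and the log2 fold change, -0.52 (standard error 0.07, adjusted p = 1.29e-04), stayed outside it. Across the alternatives other than library size alone, Adssl1 lay between -0.62 and -0.55 and Ampd1 between -0.58 and -0.48, so that the call of either depends on which side of 0.58 it falls.

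The other isozymes of the cycle moved in different directions. Ampd2, the liver-type AMP deaminase, rose from 7.44 ± 1.65 to 12.4 ± 1.89 normalized CPM (SD, n = 4 each; log2 fold change 0.75, adjusted p = 0.00437), and 7.71% of its 31-base stretches occur in other genes. Ampd3, the erythrocyte type, passed on p only, at 65.9 ± 7.47 in controls and 47.5 ± 6.70 in Dnm2 +/K562E mice (log2 fold change -0.47, adjusted p = 0.00478). Adss, the non-muscle adenylosuccinate synthetase, had the same mean of 15.1 normalized CPM in both genotypes, with a 95% interval of the log2 fold change from -0.24 to 0.25.

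Levels of different genes were compared per kilobase of exon. In controls, Ckm (3218 ± 286 normalized CPM per kilobase, SD, n = 4) ranked 12 and Ckmt2 (1925 ± 131) ranked 21 among all tested genes. Then came Adssl1 (327 ± 16.0), Ak1 (276 ± 13.5), Ampd1 (109 ± 9.23), Slc6a8 (40.8 ± 8.76), Adsl (22.5 ± 0.237), Ckb (7.15 ± 1.69), Gatm (3.01 ± 0.183) and Gamt (2.95 ± 0.642). Gatm and Gamt overlapped in this order, and all other neighbours were separate over the 4 controls. In Dnm2 +/K562E mice the first 7 places were the same, and Gamt (6.06 ± 0.883) stood above Gatm (3.49 ± 0.263) and overlapped Ckb (8.09 ± 1.92). These lengths add all annotated exons of a gene, which lowers the level of genes with many alternative exons.

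Ratios between transcripts of the same mouse do not depend on the scaling of libraries. For 8 such ratios the genotypes were compared by an exact two-sided permutation test, which with 4 mice in each genotype cannot go below p = 0.0286. That smallest p was reached by 4 ratios, none of which passed the adjustment over the 8 (adjusted p = 0.0571 for each of the 4, exact permutation test). In these 4 the genotypes did not overlap. The ratio of Ckb to Ckm was 2.30-fold higher in Dnm2 +/K562E mice, at a log2 ratio of -8.85 ± 0.285 in controls and -7.65 ± 0.510 in Dnm2 +/K562E mice (SD, n = 4 each). In normalized CPM, Ckm was lower and Ckb did not differ detectably. Adss to Adssl1 was 1.51-fold higher, with -5.51 ± 0.300 and -4.91 ± 0.119. Ckm relative to sarcomere genes (the geometric mean of Acta1, Ttn, Neb, Tcap and Actn2) had a log2 ratio of 0.731 ± 0.186 in controls and 0.135 ± 0.0848 in Dnm2 +/K562E mice, so that the ratio in Dnm2 +/K562E mice was 0.662 of that in controls. These 5 sarcomere genes had log2 fold changes from -0.52 to -0.30, and none was called. Ampd1 to Actn3, a gene of fast fibres, was 1.70-fold higher, and control 4 (-0.834) was far below the other controls (log2 ratios 0.0077 to 0.552). Without control 4 the log2 difference went from 0.769 to 0.483.

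In the remaining 4 ratios the genotypes overlapped. Ckmt2 to Ckm had a mean log2 ratio of -1.71 ± 0.133 in controls and -1.56 ± 0.277 in Dnm2 +/K562E mice (exact permutation test, p = 0.371), with Dnm2 +/K562E mice 1 and 4 above all controls. Ak1 to Ckm stood at -3.71 ± 0.0695 and -3.51 ± 0.154 (exact permutation test, p = 0.0857), and Ampd3 to Ampd1 at -2.55 ± 0.174 and -2.51 ± 0.224 (exact permutation test, p = 0.714).

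**Figure D3:**
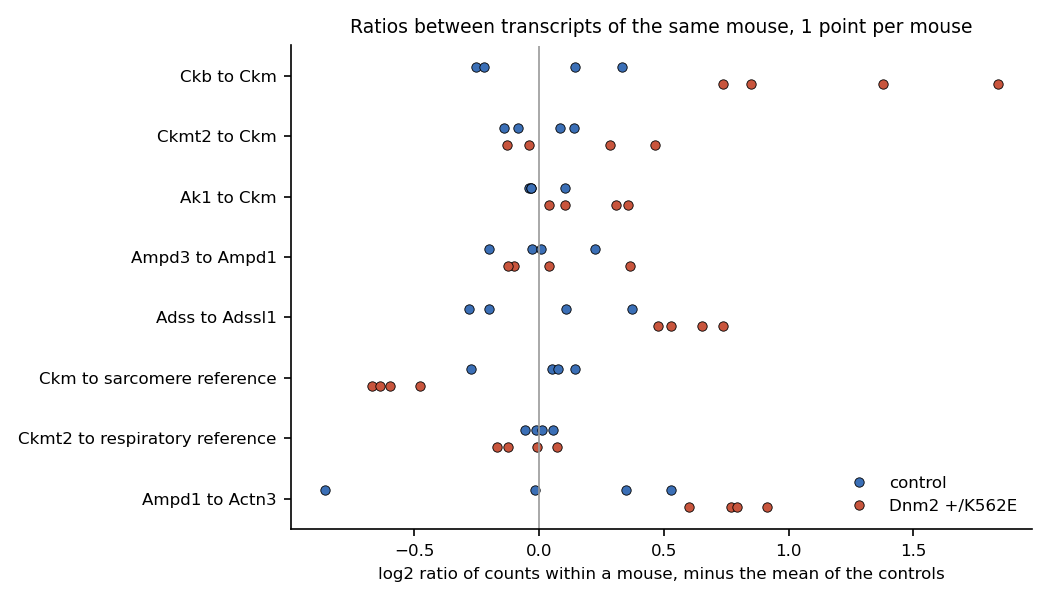
Log2 ratio of counts of 2 transcripts in the same mouse, minus the mean of the controls (horizontal axis, 1 point per mouse), for 8 ratios. Controls and Dnm2 +/K562E mice are separate for Ckb to Ckm, Adss to Adssl1, Ckm to the sarcomere genes and Ampd1 to Actn3.

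Beyond the 10 genes, lists of the surrounding pathways held 57 tested genes, of which 7 (12.3%) were called higher and 10 (17.5%) lower, against 12.9% and 7.85% of all tested genes. The share called higher was thus near that of all genes. With library size alone, 13 (22.8%) were called higher and 6 (10.5%) lower, against 20.5% and 4.03% of all tested genes. One list held the exchange proteins of mitochondria, which pass ATP, ADP and phosphate across both membranes. Of its 6 genes, 4 were called lower and none higher, at a median log2 fold change of -0.70. Slc25a4, the muscle ADP/ATP carrier, went from 3902 ± 245 to 2293 ± 183 normalized CPM (SD, n = 4 each; log2 fold change -0.77, adjusted p = 2.49e-05). The phosphate carrier Slc25a3 (-0.84) and the porins Vdac3 (-0.71) and Vdac1 (-0.68) were the other 3, Vdac1 being named after its value was seen. Slc25a5, the more widely expressed ADP/ATP carrier, was not called (0.24, adjusted p = 0.0916).

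Salvage and breakdown of AMP and IMP were covered by 17 tested genes, of which 1 was called higher and 4 lower (median log2 fold change -0.05). Adk, the adenosine kinase that turns adenosine back into AMP, had 123, 126, 126 and 108 normalized CPM in controls and 42.6, 46.3, 48.4 and 50.8 in Dnm2 +/K562E mice. It fell to 39.0% of control (log2 fold change -1.36, standard error 0.08, adjusted p = 7.37e-07), below every one of the 10 genes in log2 fold change. The GMP reductase Gmpr (-0.83) and xanthine dehydrogenase Xdh (-0.60) were called lower, as was the AMP nucleotidase Nt5c1a (-1.45, adjusted p = 0.00197), named after its value was seen. The pyrimidine and purine nucleotidase Nt5c was called higher (0.91, adjusted p = 1.82e-04). Of 7 genes for IMP synthesis from small precursors, Pfas was called lower (-0.99, adjusted p = 6.90e-04) and none higher, with a median of -0.21. Of 7 nucleoside diphosphate kinases, Nme4 (0.66) and Nme5 (1.24) were called higher and none lower, and the abundant Nme2 was not called (-0.10, adjusted p = 0.229). Nme5 was near the floor, with 11 to 31 counts per control. Single lists were not tested against the shares of all tested genes (12.9% called higher and 7.85% lower).

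A list of 10 genes covered AMP-activated protein kinase, which senses a rise in AMP, together with the kinase complex upstream of it. In that list 1 gene was called in each direction, and the median log2 fold change was -0.01. The 2 called genes encode the catalytic subunits of AMP-activated protein kinase. Prkaa2, the subunit that prevails in muscle, had 162, 181, 176 and 183 normalized CPM in controls and 102, 103, 95.8 and 104 in Dnm2 +/K562E mice (log2 fold change -0.80, standard error 0.06, adjusted p = 3.09e-06). Prkaa1 had 28.0, 26.8, 24.1 and 28.7 in controls and 44.7, 41.6, 46.5 and 43.3 in Dnm2 +/K562E mice (0.71, standard error 0.07, adjusted p = 2.34e-05). Neither gene overlapped between genotypes.

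**Figure D4:**
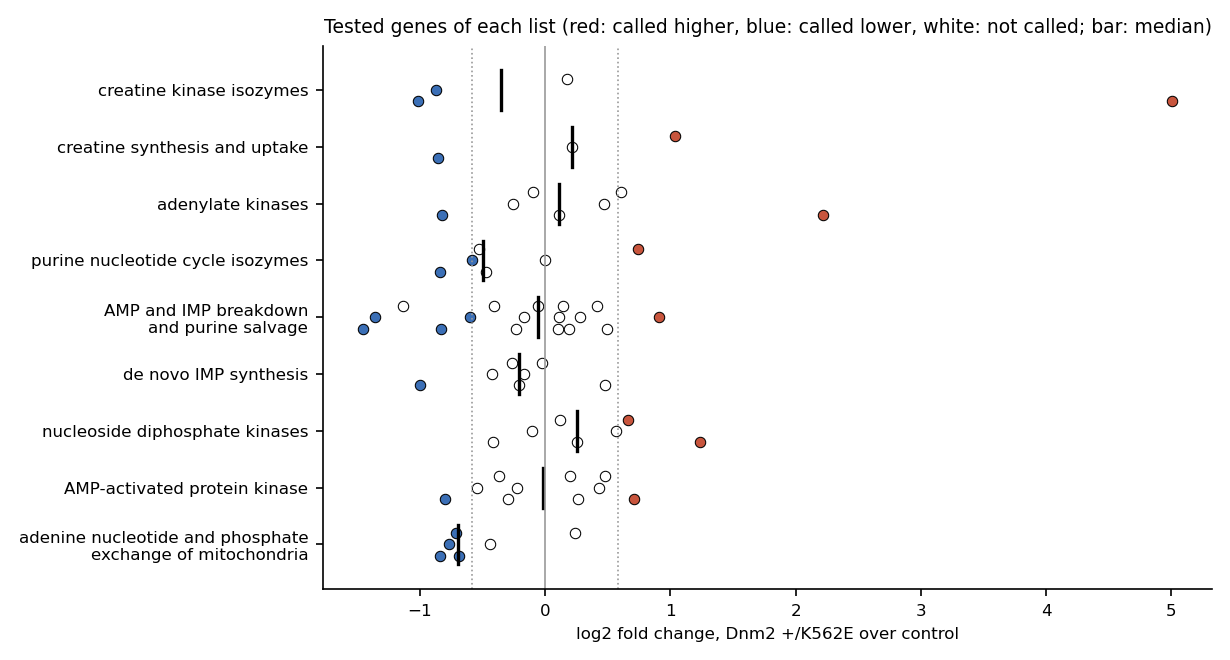
Log2 fold change between genotypes (horizontal axis) of the tested genes of 9 lists, coloured where called, with the median of each list as a bar. The blue points of the mitochondrial exchange list lie between -0.84 and -0.68, and the red point furthest to the right is Ckmt1, whose fitted value rests on 7 control counts.

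**Figure D5:**
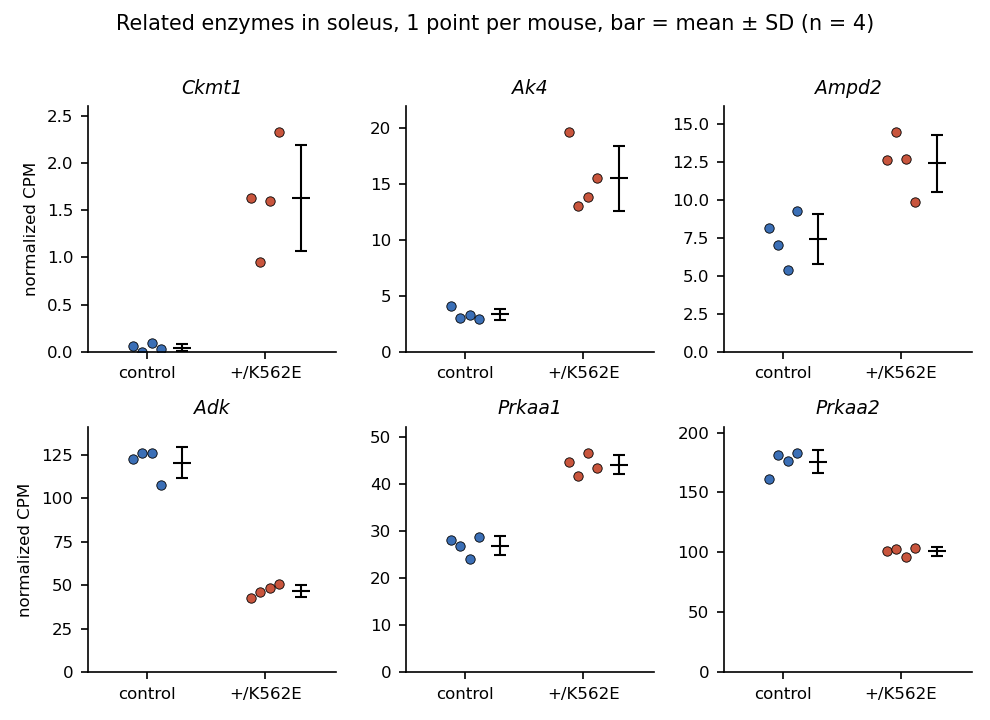
Normalized CPM per mouse of 6 related enzymes (linear axes from 0, 1 point per mouse, bars give mean ± SD over 4 mice). Ckmt1, Ak4, Ampd2 and Prkaa1 are higher and Adk and Prkaa2 lower in all 4 Dnm2 +/K562E mice than in all 4 controls.

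Several lists of markers of fibre types and other cells differed between the genotypes as well, and their part in the results was not tested. Of 9 markers of fast fibres, in which Ckm, Ak1 and Ampd1 are known to be more abundant, 8 were called lower (median log2 fold change -0.70), and their sum went from a range of 39319 to 41635 normalized CPM in controls to 22835 to 26980 in Dnm2 +/K562E mice. Of 6 markers of slow fibres, 2 were called lower (median -0.53, sums 16430 to 19320 and 10734 to 13349). On p alone, 5 of these 6 passed as lower. Markers of regenerating fibres were called higher in 4 of 6 (sums 106 to 116 and 500 to 670). Myh8 (log2 fold change 0.09) and Myod1 (-0.35) were not called. Much of the Dnm2 +/K562E sum was Myh3 alone, at 20.1 to 26.6 normalized CPM in controls and 271 to 403 in Dnm2 +/K562E mice. All 7 macrophage markers (sums 72.8 to 135 and 179 to 296) and all 5 fibroblast markers (sums 1810 to 2741 and 3886 to 5034) were called higher. Smooth muscle markers were called lower in 4 of 5 (sums 515 to 660 and 348 to 379) and endothelial markers in 1 of 5 (sums 862 to 900 and 616 to 705). On p alone, all 5 smooth muscle and all 5 endothelial markers passed as lower. Of all tested genes, 43.8% passed on p in either direction. None of 6 Schwann cell markers (sums 246 to 283 and 239 to 289) and none of 5 adipocyte markers (sums 416 to 643 and 392 to 545) was called. Every marker passed the filter on low counts, so none was at 0 throughout.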

How the data were processed

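Soleus RNA of 8 mice was analysed from the read counts per Ensembl gene that the authors deposited, 1 table per mouse, without normalization. Per the labels and the methods, reads were trimmed (Trimmomatic 0.33), aligned to GRCm38 (STAR 2.5.1b) and counted with featureCounts at a mapping quality of at least 10. Reads over several genes counted for each, multi-mapping reads only at their primary alignment. The strand setting is not given in the sources used here. The labels name a total RNA kit and the methods a poly A kit. Groups follow the sample titles. The labels give no batch.

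Symbols and positions came from GENCODE M21 (22647 of 22880 IDs matched), promoters from RefSeq (GRCm38.p6). Filtering (filterByExpr, minimum count 10, minimum total 15), TMM factors and the quasi-likelihood F-test used edgeR 4.0.16 in R 4.3.3, with Benjamini-Hochberg adjustment over 14001 genes. All adjusted p-values are from this test unless a permutation test is named. Standard errors are those implied by the F statistic. Ratios were compared by exact two-sided permutation tests (scipy 1.17.1). The fit was tested on simulated data.

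The genes and lists were chosen with earlier results of these data known. Named are the 10 genes, their isozymes, Dnm2, genes of marker or reference lists, and in each other pathway list at most the 3 called genes with the smallest p in each direction. Of 19 genes listed for AMP and IMP breakdown and salvage, 18 were found among the counts. The values of 1 listed gene are not reported here.

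The numbers 1 to 4 that the titles give both genotypes belong to different animals. Same-numbered mice correlated at -0.11 on average over genes in their deviations from the group means (-0.03 by the numbers in the descriptions). The alternatives comprised DESeq2 1.42.0, edgeR's exact test (the test of the study), library size alone, median-ratio factors, mitochondrially encoded genes left out, no filter, at least 10 counts in every mouse, either numbering as a replicate block, no fold change threshold, differences in medians, and each mouse left out.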

Additional observations from a re-analysis of the deposited data

Results flagged for a closer look

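The groups of 4 mice were searched for a mouse that stands apart by Dixon's criterion, over the 10 genes and the 8 ratios (36 groups). This criterion marks about 5% of groups by chance, and 1 group was marked. The log2 ratio of Ak1 to Ckm in control 1 was -3.60, whereas the other controls lay between -3.75 and -3.74.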

How the results depend on the processing

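Each of the 10 genes kept its direction under all 17 alternatives to the fit (170 pairs of gene and alternative), and in 169 pairs its side of the threshold on p. The exception was Gatm with library size alone. The count of genes called lower ran from 5 to 7 over the fits that left out 1 mouse each and that of higher genes was 1 throughout. Adssl1 lost its call without control 2, without control 3, without Dnm2 +/K562E mouse 2 or 3, with library size alone and with at least 10 counts in every mouse, and Ampd1 gained one without control 1, in each case by crossing the threshold on the fold change. With either numbering as a replicate block, the counts of called genes were 6 lower and 1 higher, as without it, and Ckm was at -1.02 with the title numbers (adjusted p = 1.09e-04, edgeR quasi-likelihood test). By the title numbers no same-numbered pair of mice had a correlation over 0.1, and by the description numbers 1 had. Of the other pathway genes, 7 were called higher and 10 lower, which became 13 and 6 with library size alone and 15 and 19 without the fold change threshold. Taking medians in place of means, the 4 ratios without overlap had differences of 1.15 (Ckb to Ckm), 0.637 (Adss to Adssl1), -0.682 (Ckm to sarcomere genes) and 0.617 (Ampd1 to Actn3). Each had p = 0.0571 by the exact permutation test. With 4 mice in each genotype a difference in medians cannot give a lower p, so this rise in p does not show a weaker result. Ampd3 to Ampd1 went from 0.0446 to -0.0202 with medians. Leaving out 1 mouse at a time, with no test, moved each of the 8 ratios by less than 1 SD between mice, and that of Ampd3 to Ampd1 ranged from -0.0614 to 0.119. Ckmt1 with 7 control counts is limited by depth.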

Other observations

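The mice of one genotype were not alike in all of these genes. Control 1 was the lowest control in 8 of the 10 genes, the exceptions being Ckmt2 and Adsl, where control 4 was lowest. Dnm2 +/K562E mouse 1 had the lowest Ckm (3907 normalized CPM) and the highest Ckb (30.3) of its genotype. Its creatine kinase transcripts, divided by exon length, were 54.5% Ckm and 45.1% Ckmt2, against 64.4% and 35.3% in Dnm2 +/K562E mouse 2, a wider range than that of the controls (60.2% to 64.6% Ckm). Dnm2 +/K562E mouse 4 had the highest level of its genotype in 6 of the 10 genes. Among the markers of fast fibres, control 4 stood far above the other controls in Myh4 (3134 normalized CPM, others 163 to 426). It was also far above them in Actn3 (758, others 236 to 389) and Pvalb (946, others 342 to 469). In Myh2, Myh1, Tnni2 and Tnnc2 control 4 was the lowest control.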
